A study of Mus musculus with 6 samples.

Results

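The miR-181 family was followed through small RNA sequencing of mouse whole brain. Its members were taken by name: every entry of the deposited tables that begins with miR-181a, miR-181b, miR-181c or miR-181d, whatever its copy or arm, which gave 10 of the 1055 mature miRNAs listed. Of these 10, 4 are unstarred entries (miR-181a, miR-181b, miR-181c and miR-181d) and 6 are star entries, the asterisk marking the arm of a hairpin that was taken as the minor product when it was named. Brains of 3 wild-type and 3 Adar2-/- adult female mice, siblings of 5.5 months from heterozygous crosses in a 129SV background, were compared with a separate library for each brain. Both genotypes were homozygous for the pre-edited Gria2 allele (Gria2 R/R), which rescues the early lethality of the Adar2 loss, so the wild-type animals carried it as well. The Adar2 deletion was present in all cells of the animal, and whole brain mixes neurons, glia, vessels and blood. In such bulk RNA, fewer cells of a type and less RNA per cell cannot be told apart.

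ADAR2 deaminates adenosines to inosines in double-stranded RNA, including the hairpin precursors from which Drosha and Dicer release mature miRNAs. Each hairpin can yield a 5p and a 3p strand, one of which is usually kept by Argonaute while the other is degraded, and the kept strand finds its targets mainly through its seed, the bases at positions 2 to 8. The miR-181 family is conserved among vertebrates, is abundant in brain and in developing lymphocytes, and is known for tuning T cell receptor signalling. In neurons miR-181a is known to restrain GluA2, the AMPA receptor subunit that Gria2 encodes.

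The mature sequences show what the members share and where reads on one member could be taken for another. They were read from the RefSeq miRNA table (GRCm38.p6), which held all 10 members under their 5p and 3p names, and the seed is in capitals:
miR-181a: aACAUUCAacgcugucggugagu
miR-181b: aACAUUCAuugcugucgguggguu
miR-181c: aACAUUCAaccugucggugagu
miR-181d: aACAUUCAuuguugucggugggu
miR-181a-1*: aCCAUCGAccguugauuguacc
miR-181a-2*: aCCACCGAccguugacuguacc
miR-181c*: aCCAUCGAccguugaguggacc
miR-181d*: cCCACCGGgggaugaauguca
miR-181b-1*: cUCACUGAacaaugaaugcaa
miR-181b-2*: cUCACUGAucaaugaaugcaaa

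The tables hold no sequences, and unstarred names were matched to 5p and starred names to 3p strands by the usual renaming of these miRNAs, on which the seeds, edit distances and statements on strands rest. All 4 unstarred members, taken as the 5p strands, carried the seed ACAUUCA. The 6 star members, taken as the 3p strands, fell into 4 seeds: miR-181a-1* and miR-181c* shared CCAUCGA, miR-181b-1* and miR-181b-2* shared UCACUGA, and miR-181a-2* and miR-181d* had a seed of their own each. miR-181a and miR-181c were 1 edit apart, counting substitutions, insertions and deletions alike, and miR-181b and miR-181d were 2 edits apart, as were miR-181a-1* and miR-181a-2*, miR-181a-1* and miR-181c*, and miR-181b-1* and miR-181b-2*. The authors mapped reads at 90% identity, so the division of reads between these close relatives is uncertain, and its part in the values below was not tested.

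The genes form 3 pairs of hairpins. On NCBIM37, Mir181a-1 lies on chromosome 1 from 139863032 to 139863118 and Mir181b-1 from 139863216 to 139863295, both on the plus strand and outside other annotated genes. Mir181a-2 lies on chromosome 2 from 38708255 to 38708330 and Mir181b-2 from 38709350 to 38709438, on the plus strand within an intron of Nr6a1, which is transcribed from the other strand. Mir181c lies on chromosome 8 from 86702762 to 86702867 and Mir181d from 86702615 to 86702686, on the minus strand and outside other annotated genes. The hairpins of a pair are 97, 1019 and 75 bp apart on chromosomes 1, 2 and 8.

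miR-181a is cut from 2 hairpins and its reads cannot be assigned to either. The 3p strands differ by 2 edits, so as far as the mapping separates them, their reads can tell apart the 2 hairpins. Both are shown with the mature strands in capitals, from chr1:137966455-137966541 and chr2:38852735-38852810 of GRCm38.p6, plus strand:
Mir181a-1: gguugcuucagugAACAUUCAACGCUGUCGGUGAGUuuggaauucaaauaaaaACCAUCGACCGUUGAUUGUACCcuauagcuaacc
Mir181a-2: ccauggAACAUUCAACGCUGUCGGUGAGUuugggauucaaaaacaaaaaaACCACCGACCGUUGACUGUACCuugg

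Depth was 12449633 to 23471819 mapped miRNA reads per library in wild type and 18645810 to 23935544 in Adar2-/-. A level in RPM is a miRNA's reads scaled to 1000000 reads on all miRNAs of its library, and the values of a genotype are given in the order of replicates 1 to 3. Each read covers a whole mature miRNA, so no division by length was made, but adaptors join some sequences more readily than others, and a difference in reads between 2 miRNAs need not be one in molecules. Wilson 95% intervals of the RPM values reached at most 16.6% of the value to either side for the 8 members with at least 100 reads in every library. They cover counting error only, and leave out the spread between brains. They also take reads as independent, which reads after PCR are not, so they can be too narrow even for that error.

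In these brains the family was read at a moderate level and was led by miR-181b and miR-181a. Together the 10 members accounted for 0.599%, 0.527% and 0.646% of all miRNA reads in wild type, averaging 0.590% ± 0.0600 (SD, n = 3). The corresponding shares in Adar2-/- were 0.446%, 0.682% and 0.644%, averaging 0.591% ± 0.127 (SD, n = 3). The Adar2-/- libraries held both the lowest and the highest share, and the wild-type libraries lay between them. This share is given as a description, with no test, because it sums members chosen by name.

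miR-181b had 2380, 1959 and 2234 RPM in wild type and 1703, 2815 and 2489 RPM in Adar2-/-. It ranked 42 to 49 among all miRNAs of a library and was the most read member throughout. miR-181a had 1907, 1459 and 1486 RPM in wild type and 1452, 1958 and 2287 RPM in Adar2-/-, where replicate 3 was the highest library and replicate 1 the lowest.

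Next came a star arm, miR-181a-1*, with 827, 905 and 1704 RPM in wild type and 562, 975 and 724 RPM in Adar2-/-. Wild-type replicate 3 stood apart from the other 5 libraries in this member. miR-181d followed with 438, 507 and 546 RPM in wild type and 306, 638 and 527 RPM in Adar2-/-. miR-181c* had 352, 364 and 395 RPM in wild type and 373, 340 and 319 RPM in Adar2-/-. Its highest library was only 1.24 times its lowest, against 1.58 times for miR-181a and 3.03 times for miR-181a-1*, so that it was the steadiest of the 10 members.

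The remaining members were read far less. miR-181c had 29.2, 35.6 and 32.4 RPM in wild type and 25.9, 45.4 and 57.7 RPM in Adar2-/-. miR-181a-2* had 38.7, 29.98 and 45.2 RPM in wild type and 27.8, 40.6 and 33.8 RPM in Adar2-/-. miR-181b-1* had 16.1, 6.15 and 14.3 RPM in wild type and 11.7, 7.12 and 6.68 RPM in Adar2-/-. In each of these 3 members the genotypes overlapped.

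miR-181b-2* and miR-181d* were at the edge of detection. miR-181b-2* received 9, 8 and 11 reads in wild type and 9, 7 and 8 reads in Adar2-/-, or 0.723, 0.351 and 0.469 RPM against 0.483, 0.297 and 0.334 RPM. miR-181d* received 3, 6 and 5 reads in wild type and 4, 1 and 3 reads in Adar2-/-. Both were below the minimum of 100 reads. They were lower in Adar2-/- in all 3 replicate numbers. Of the 399 miRNAs above that minimum in every library, 16% kept the same direction, up or down. The exact (Clopper-Pearson) 95% intervals of single libraries overlapped. For miR-181d* in replicate 2, with 6 against 1 reads, they ran from 0.0967 to 0.573 RPM in wild type and from 0.00107 to 0.236 RPM in Adar2-/-. At this depth no difference was detectable in either. In an edgeR fit without a minimum their log2 fold changes were -0.43 (standard error 0.561) and -0.92 (standard error 0.772), each with an adjusted p of 0.988.

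**Figure D1:**
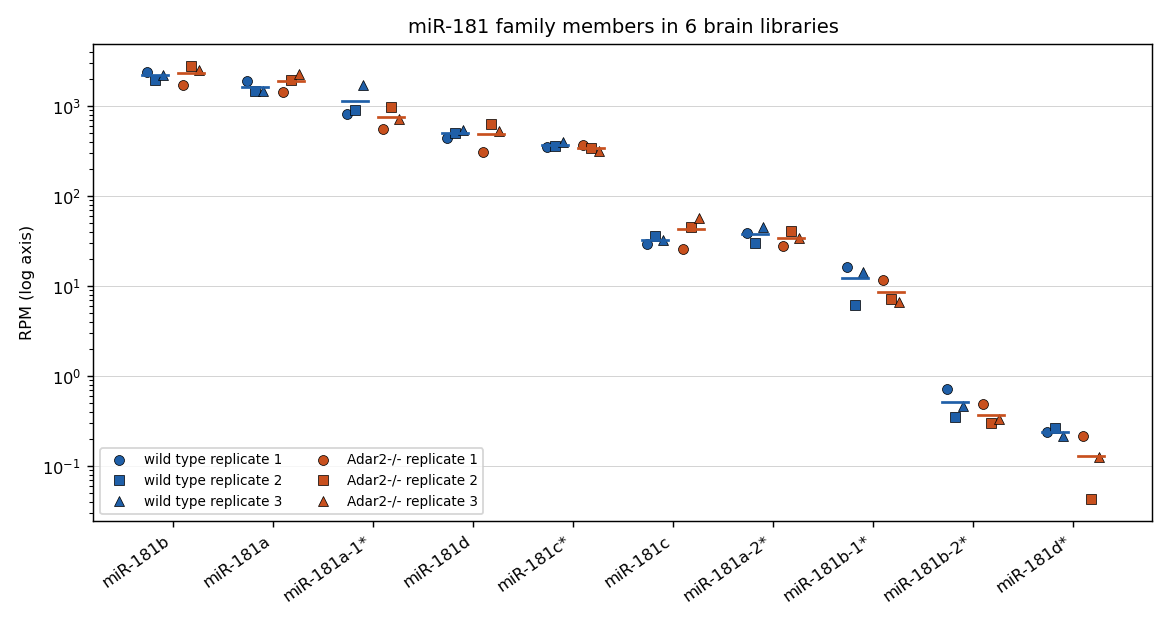
Level of each miR-181 family member in RPM on a log axis, ordered by the mean over 6 libraries. Blue points are wild-type and orange points Adar2-/- libraries, with circles, squares and triangles for replicates 1, 2 and 3, and short lines mark the mean of a genotype (n = 3); levels run from miR-181b at 2263 RPM to miR-181d* at 0.183 RPM, and the genotypes overlap in every member.

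Ordered by the mean over the 6 libraries, the members ran from miR-181b (2263 RPM) through miR-181a (1758), miR-181a-1* (949), miR-181d (494), miR-181c* (357), miR-181c (37.7), miR-181a-2* (36.0) and miR-181b-1* (10.3) to miR-181b-2* (0.443) and miR-181d* (0.183 RPM). Within a library miR-181b exceeded miR-181a in 6 of 6 libraries and miR-181a-1* exceeded miR-181d in 6 of 6. The order of miR-181a and miR-181a-1* held in 5 of 6 libraries, with wild-type replicate 3 as the exception, and that of miR-181d and miR-181c* in 5 of 6, with Adar2-/- replicate 1 as the exception. miR-181c and miR-181a-2* had no fixed order, each being higher in 3 of 6 libraries. Every other pair of neighbours kept its order in 6 of 6.

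Within the family, miR-181b made up 34.6% to 41.3% of the reads and miR-181a 23.0% to 35.5%. The share of miR-181a-1* ran from 11.2% in Adar2-/- replicate 3 to 26.4% in wild-type replicate 3. The 6 star members summed to 20.6%, 24.8% and 33.4% of the family's reads in wild type, averaging 26.3% ± 6.54 (SD, n = 3). They summed to 21.9%, 20.0% and 16.8% in Adar2-/-, averaging 19.6% ± 2.54 (SD, n = 3). The genotypes overlapped, with wild-type replicate 1 below Adar2-/- replicate 1.

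**Figure D2:**
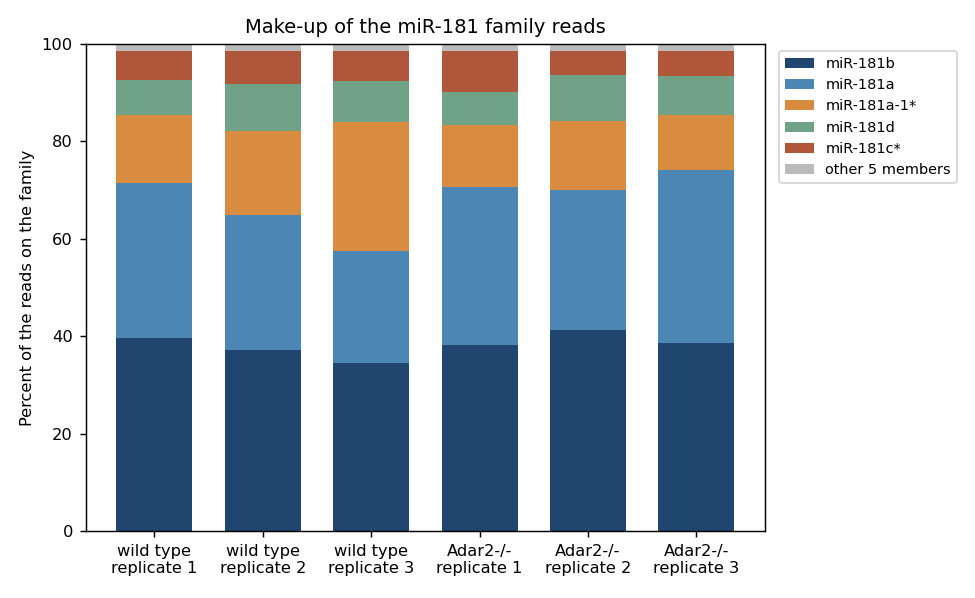
Make-up of the reads on the miR-181 family in each library, as percent of the family's reads (stacked bars from 0 to 100). miR-181b and miR-181a fill most of each bar, and miR-181a-1* takes 26.4% in wild-type replicate 3 against 11.2% in Adar2-/- replicate 3.

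The study used these libraries to ask how the loss of ADAR2 changes both the editing and the abundance of mature miRNAs. Only abundance was analysed here. In the edgeR quasi-likelihood test 0 of the 8 members with at least 100 reads in every library passed an adjusted p of 0.05, and 0 had an unadjusted p under 0.05. Over all 399 miRNAs tested 0 passed (0%), and 13 (3.26%) had an unadjusted p under 0.05. DESeq2 likewise called 0 of the 8 members, against 1 of all 399 (0.251%). At an unadjusted p under 0.05 it listed 1 member, miR-181a-1*, and 40 of all 399 (10%). Adjusted p-values of the members ran from 0.988 to 0.989 in edgeR.

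Among the 5p strands, miR-181a had a mean of 1617 ± 251 RPM in wild type and 1899 ± 421 RPM in Adar2-/- (SD, n = 3 each), a log2 fold change of 0.23 (standard error 0.322, 95% interval -0.48 to 0.95). It stood at 0.08 without Adar2-/- replicate 3, at 0.39 without Adar2-/- replicate 1 and at 0.37 without wild-type replicate 1. miR-181b had 2191 ± 214 and 2336 ± 572 RPM, a log2 fold change of 0.09 with an interval of -0.62 to 0.81. miR-181c had the most positive value of the 8, at 0.41 with an interval of -0.41 to 1.22, from means of 32.4 ± 3.18 and 43.0 ± 16.01 RPM. Without Adar2-/- replicate 3, its highest library, miR-181c stood at 0.14, and without Adar2-/- replicate 1 at 0.67. miR-181d was at -0.02 with an interval of -0.81 to 0.76. The sign of both miR-181b and miR-181d turned with single libraries: miR-181b stood at -0.06 without Adar2-/- replicate 2 and at 0.28 without Adar2-/- replicate 1, and miR-181d at -0.26 and 0.23 without the same libraries.

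All 4 star members tested had log2 fold changes below 0, as did 64 of the 93 star entries tested in all. These members stayed below 0 in each of the 16 alternative fits, which reuse the same libraries and are no independent support. Without replicate 3 of both genotypes miR-181a-2* stood at -0.0064 and miR-181c* at -0.0047. miR-181a-1* had the most negative value of the 8 members tested, -0.60 (standard error 0.389, 95% interval -1.47 to 0.26), with means of 1145 ± 485 RPM in wild type and 754 ± 208 RPM in Adar2-/- (SD, n = 3 each). Without wild-type replicate 3 it stood at -0.20, and without replicate 3 of both genotypes at -0.17. Its unadjusted p in DESeq2 was 0.0373, which became 0.452 after adjustment, and over all alternatives its adjusted p ran from 0.377 to 0.998. miR-181b-1* had a log2 fold change of -0.51 (interval -1.45 to 0.42), miR-181a-2* -0.16 (interval -0.89 to 0.58) and miR-181c* -0.11 (interval -0.76 to 0.55). Single libraries moved these values as well. miR-181b-1* stood at -0.27 without wild-type replicate 1, and at -0.84 and -0.81 without wild-type replicate 2 and Adar2-/- replicate 1. miR-181a-2* stood at -0.012 and -0.029 without wild-type replicate 3 and Adar2-/- replicate 1, and at -0.30 without replicate 2 of either genotype. miR-181c* stood at -0.056 and -0.054 without replicate 3 of wild type or Adar2-/-, and at -0.17 without Adar2-/- replicate 1.

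The median log2 fold change of the 8 members was -0.06, against 0.0023 for the 399 miRNAs tested. In absolute size the median was 0.19 for the members and 0.26 for all. The spread between replicates of a genotype, as the SD of log2 RPM, had a median of 0.35 over the members and 0.45 over all 399. miR-181c* had the smallest SD of the members, 0.10, and miR-181b-1* the largest, 0.62. Larger absolute changes than that of miR-181a-1* were found for 56 of the 399 miRNAs, and larger ones than that of miR-181d for 384.

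**Figure D3:**
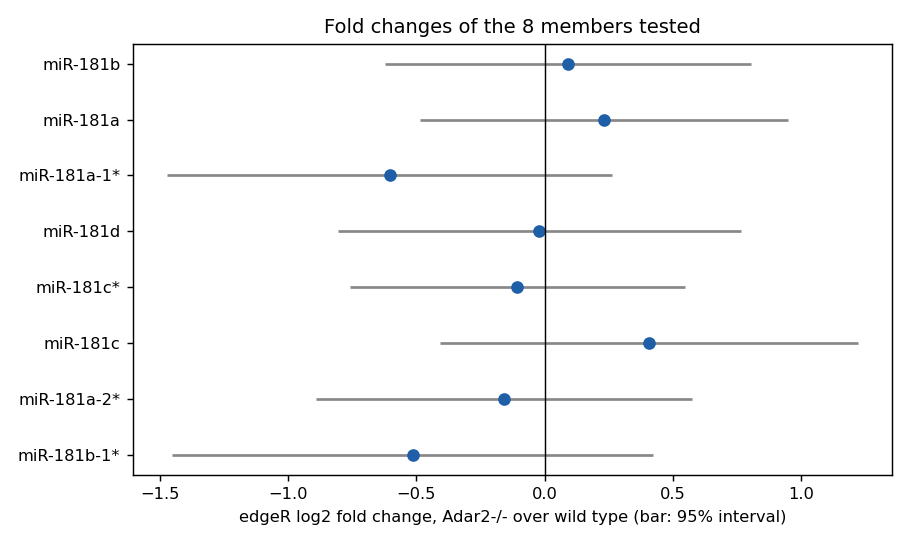
edgeR log2 fold changes of Adar2-/- over wild type for the 8 members tested (points), with 95% intervals (bars), 3 libraries per genotype. Every interval includes 0, and the points run from -0.60 for miR-181a-1* to 0.41 for miR-181c.

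Among its criteria, which included a significance test not repeated here, the study asked for the same direction of change in every replicate. In all 3 replicate numbers 0 of the 8 members went the same way, where 16% of the 399 miRNAs tested did so and 9.77% did so with mean levels that differed 1.3-fold or more. Nor were the genotypes separated in any of the 8 members, where 5.76% of the 399 miRNAs had no overlap. Adar2-/- RPM divided by wild-type RPM was 0.761, 1.34 and 1.54 in replicates 1 to 3 for miR-181a and 0.716, 1.44 and 1.11 for miR-181b. For miR-181c it was 0.886, 1.28 and 1.78. These 3 members were lower in Adar2-/- in replicate 1 and higher in the others.

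The star arms of the chromosome 1 pair had another pattern. miR-181a-1* had ratios of 0.680, 1.08 and 0.425 in replicates 1 to 3, and miR-181b-1* had 0.731, 1.16 and 0.467. Both were thus lower in Adar2-/- in replicates 1 and 3 and slightly higher in replicate 2. miR-181a-2* went the same way with 0.718, 1.35 and 0.748. miR-181d was at 0.697, 1.26 and 0.965. miR-181c* alone was higher in replicate 1, at 1.06, and lower in the others, at 0.936 and 0.807.

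This count depended on the scaling. With TMM factors in place of the totals, miR-181a-1* and miR-181b-1* were lower in all 3 replicate numbers by at least 1.3-fold, 2 of the 8 members, where 15.3% of all 399 met the rule. When the totals skipped the 5 most abundant miRNAs, miR-181a-1* met it, 1 of the 8, where 13% of all did.

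**Figure D4:**
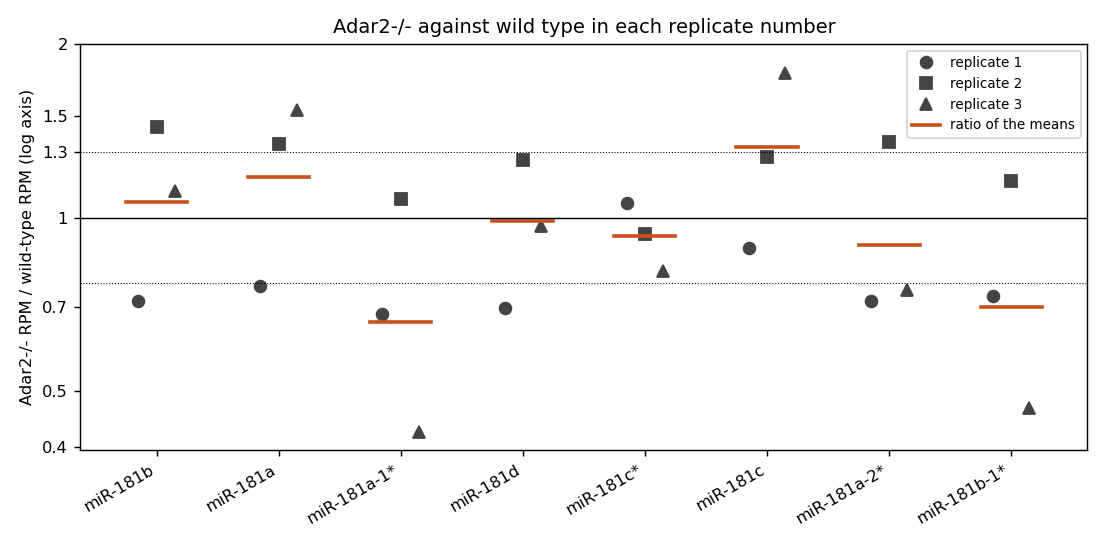
Adar2-/- RPM divided by the wild-type RPM of the same replicate number, on a log axis, for the 8 members tested (circle, square and triangle for replicates 1, 2 and 3). Orange lines give the ratio of the mean RPM, dotted lines mark 1.3-fold in either direction, and in each member the 3 points fall on both sides of 1.

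The star arms of the 2 miR-181a hairpins are 2 edits apart, as are those of the miR-181b hairpins. How well the mapping separated their reads was not tested. miR-181a-1* exceeded miR-181a-2* 21.4, 30.2 and 37.7 times in wild type and 20.2, 24.0 and 21.4 times in Adar2-/-. The arm from chromosome 1 thus took 95.5%, 96.8% and 97.4% of the reads on the 2 star arms in wild type and 95.3%, 96.0% and 95.5% in Adar2-/-, with Wilson 95% bounds between 94.9% and 97.6% over the libraries. The star arms of the neighbouring miR-181b hairpins were divided alike: miR-181b-1* from chromosome 1 took 94.6% to 96.8% of the reads on miR-181b-1* and miR-181b-2*, a mean of 95.7% ± 0.764 (SD, n = 6), with wider Wilson bounds of 89.7% to 98.2% because of the low counts. The mean for the miR-181a hairpins was 96.1% ± 0.840 (SD, n = 6). The shares of the 5p strands that came from each chromosome cannot be read from these values.

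In reads, which need not follow molecules, strand use differed between the hairpins. miR-181a-1* reached 0.434, 0.620 and 1.15 times the reads of miR-181a in wild type and 0.387, 0.498 and 0.317 times in Adar2-/-. It outnumbered the miR-181a reads of both hairpins together in wild-type replicate 3, and how it compared with the 5p strand of its own hairpin cannot be read from these values. miR-181b-1* had 0.00253 to 0.00690 times the reads of miR-181b, so that almost all of these reads were on the 5p strand.

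Counted in reads, which adaptor joining can skew, the chromosome 8 pair combined opposite strand use in hairpins 75 bp apart. From Mir181c the 3p strand prevailed: miR-181c*, the strand once named as the minor one, had 12.04, 10.2 and 12.2 times the reads of miR-181c in wild type and 14.4, 7.497 and 5.54 times in Adar2-/-. From Mir181d the 5p strand prevailed, with 5458, 11558 and 12815 reads on miR-181d in wild type against 3, 6 and 5 on miR-181d*. A star entry exceeded its partner in all 6 libraries in 9 of the 73 hairpins for which a name and its starred form both reached 100 reads in every library (12.3%). Ranked by the mean log2 ratio of star to partner, Mir181c stood at 4 of these 73, with a value of 3.30. miR-181c and miR-181a have the smallest edit distance of the family, at 1, and miR-181c* is 2 edits from miR-181a-1*. How well the mapping separated these reads was not tested.

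Ratios between members of a library do not depend on its total, and 8 such ratios were compared between the genotypes by two-sided exact permutation tests. The smallest exact permutation p that 3 brains per genotype allow is 0.1. The log2 ratio of miR-181d to miR-181c was 3.91, 3.83 and 4.08 in wild type, averaging 3.94 ± 0.12 (SD, n = 3), and 3.56, 3.81 and 3.19 in Adar2-/-, averaging 3.52 ± 0.31 (SD, n = 3). It was lower in each Adar2-/- library than in any wild-type library, a difference of -0.42 (exact permutation p = 0.1, 0.457 after Benjamini-Hochberg adjustment over the 8 ratios). Adar2-/- replicate 2 lay just below wild-type replicate 2. Without Adar2-/- replicate 3 the difference was -0.25. Because miR-181c is 1 edit from the more read miR-181a, misplaced reads could enter this ratio, which was not tested.

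In the other 7 ratios the genotypes overlapped. The log2 ratio of miR-181a-1* to miR-181a differed the most, by -0.78, from -0.57 ± 0.71 in wild type to -1.34 ± 0.33 in Adar2-/- (SD, n = 3 each; exact permutation p = 0.2), and by -0.40 without wild-type replicate 3. That of miR-181c* to miR-181c differed by -0.44 (exact permutation p = 0.4). It was 3.59, 3.35 and 3.61 in wild type and 3.85, 2.91 and 2.47 in Adar2-/-, so the Adar2-/- libraries lay on both sides of wild type, and the difference was -0.14 without Adar2-/- replicate 3. miR-181b to miR-181a, the 2 leading members, stood at 0.44 ± 0.14 in wild type and 0.29 ± 0.21 in Adar2-/- (SD, n = 3 each; exact permutation p = 0.4). The adjusted p-values of these 7 ran from 0.457 to 0.6 over exact permutation tests.

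**Figure D5:**
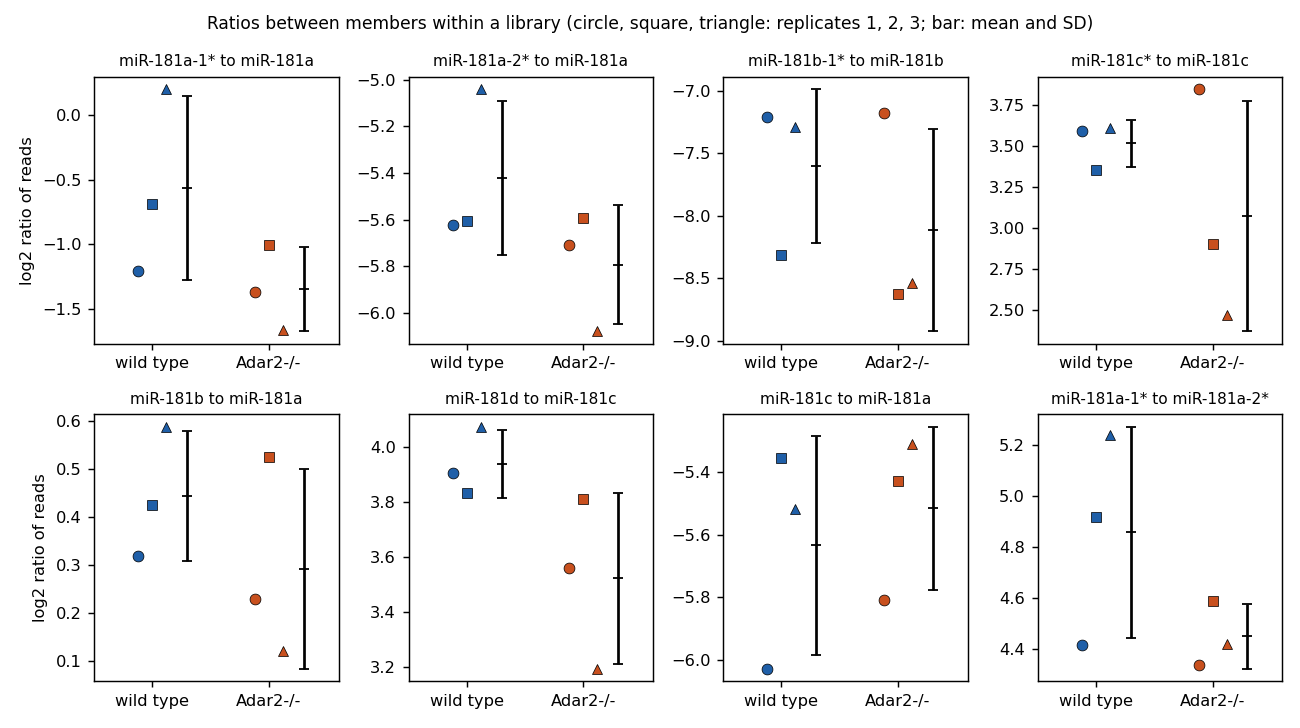
Log2 ratios of reads between members of the same library for the 8 ratios compared, each panel with its own axis. Blue points are wild-type and orange points Adar2-/- libraries (circle, square and triangle for replicates 1, 2 and 3), and bars give the mean and SD (n = 3); the genotypes are separated in miR-181d to miR-181c alone, where wild type averaged 3.94 and Adar2-/- 3.52.

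Across the 6 libraries the log2(RPM + 1) values of miR-181b moved with those of miR-181d (Pearson r = 0.82) and miR-181a (r = 0.78), and miR-181a-1* moved with miR-181a-2* (r = 0.81) rather than with miR-181a (r = -0.21). miR-181a and miR-181c* moved in opposite directions (r = -0.90). Outside the family, the 5 miRNAs most like miR-181b were miR-140* (r = 0.96), miR-744* (r = 0.95), miR-191 (r = 0.95), miR-1839-5p (r = 0.94) and miR-25 (r = 0.94). Those most like miR-181a-1* were miR-423-3p (r = 0.99), miR-425 (r = 0.94), miR-148a (r = 0.91), miR-1937a (r = 0.90) and miR-379 (r = 0.90). These are the highest of all the miRNAs tested over 6 points that share library and depth, and describe these libraries only.

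Marker miRNAs of brain cells and of tissues that whole brain could carry along were summed as lists. The blood and immune list (9 miRNAs, 6 of them tested) summed to 2152 to 4415 RPM in wild type and 2923 to 3922 RPM in Adar2-/-, and none of its members was at 0. Its highest library was wild-type replicate 3, where miR-181a-1* was also the highest. In that library miR-142-3p, a miRNA of blood cells, stood at 1982 RPM against 815 to 1443 RPM in the others, and miR-451, of red cells, at 1438 RPM against 320 to 1303. These were the 2 of the 9 that peaked there, while the other 7 were highest in other libraries, such as miR-142-5p with 35.5 RPM there against 91.6 RPM in wild-type replicate 1 and miR-150 with 474 against 629 RPM in wild-type replicate 2. The vessel list (4 of 4 tested) was highest in the same library, at 80298 RPM against 50321 to 62688 in the others. The part of blood or vessels in the level of miR-181a-1* was not tested. The neuronal list (8 of 8 tested) summed to 139458 to 182790 RPM in wild type and 142743 to 158395 RPM in Adar2-/-. Its lowest library was wild-type replicate 3, at 139458 RPM. The choroid plexus list (1 of 2 tested) ran from 838 to 1622 RPM over the 6 libraries, the 1 oligodendrocyte miRNA found under its name (1 of 2) from 211 to 519 RPM, and the list of epithelium and sensory organs (8 of 8 tested) from 19897 RPM in Adar2-/- replicate 3 to 196112 RPM in Adar2-/- replicate 1. By edgeR 0 of the tested miRNAs of these lists changed at an adjusted p of 0.05, and 0 of all 399 did. At the same unadjusted level 0 of the tested list miRNAs changed, against 13 of all 399 (3.26%).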

How the data were processed

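Small RNAs of 19 to 25 nucleotides were sequenced by the authors. Adaptors were removed with Cutadapt, and reads were mapped with NextGenMap at 90% identity to the mature miRNAs of miRBase release 16. Hits to the reverse strand were discarded and reads with several equally good hits were weighted. The authors deposited the resulting read counts, which are whole numbers without normalization, in 3 tables of 1 wild-type and 1 Adar2-/- library. Columns were given to samples by genotype and replicate number, and 12 blank lines were dropped. Editing, mRNA and Adar2 itself were not analysed here, so the genotype labels were not checked.

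Counts were tested with edgeR 4.0.16 (glmQLFit, glmQLFTest; R 4.3.3) on the 399 miRNAs whose counts reached 100 in all 6 libraries, using the total of mapped miRNA reads as library size, no factors, no block and Benjamini-Hochberg adjustment with a threshold of 0.05. The alternatives tried were DESeq2 1.42.0, TMM factors, leaving the 5 most abundant miRNAs out of the totals, minimums of 10 reads or none, a replicate block, other forms of the 1.3-fold rule and leaving out libraries. The tests were tried on simulated counts. Ratios were compared by exact permutation tests (scipy 1.17.1, Python 3.11.15).

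Every member is named, with the 5 miRNAs of highest Pearson r to the most read member and to the most read star arm. Members, lists and tests were chosen with earlier results of these data known. Each brain had its own library and lane, so lane and brain cannot be told apart. The p-values rest on the spread between single brains together with that of their libraries and lanes.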

Additional observations from a re-analysis of the deposited data

How the results depend on the processing

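None of the 16 alternative fits called a member of the family. The number of miRNAs called over the whole table was 0, except 1 with DESeq2 and 18 without replicate 1 of both genotypes (0 to 18 over the fits that left out libraries). With the replicate block it was 0, and miR-181a-1* stood at -0.56; the block changed no call. Same-numbered libraries share a number and a deposited table. Their deviations from the genotype means correlated at -0.0010, -0.08 and -0.01 over 399 miRNAs. Whether they were also prepared or sequenced together was not tested. The log2 fold changes of the members kept their sign in 123 of 128 refits, which reuse the same libraries and are not independent. The exceptions were miR-181b without Adar2-/- replicate 2 (-0.06) and without replicate 2 (-0.14), and miR-181d without wild-type replicate 3 (0.05), without Adar2-/- replicate 1 (0.23) and without replicate 1 (0.15). Over the fits that left out libraries miR-181b ran from -0.14 to 0.34 and miR-181d from -0.26 to 0.23. Members meeting the 1.3-fold rule numbered 2 with TMM factors, 1 with totals that skipped the 5 most abundant miRNAs, and 0 to 3 when a replicate number was left out, with miR-181a and miR-181c higher without replicate 1, and miR-181a-1*, miR-181a-2* and miR-181b-1* lower without replicate 2; only 2 comparisons have to match there, and 44.1% and 32.8% of all 399 miRNAs met the rule without replicates 1 and 2. The cause was not tested. Over those smaller totals the family's share was 1.15% in wild type and 1.09% in Adar2-/-, and over the full totals the unstarred members alone took 0.434% in wild type. The log2 ratios kept their sign in 63 of 64 refits, likewise not independent, the exception being miR-181c to miR-181a without wild-type replicate 1. The difference in that ratio ran from -0.078 to 0.26 over the libraries left out. Depth most limits the values of miR-181b-2* and miR-181d*, with at most 11 reads in a library.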
